A study of Nasonia vitripennis with 6 samples.

Results

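Genes for the respiratory chain and the mitochondrial ATP synthase were compared between 2 tissues of the parasitoid wasp Nasonia vitripennis, the venom gland (VG) and the ovary. The members were all gene models whose annotation names NADH dehydrogenase or NADH-ubiquinone oxidoreductase, succinate dehydrogenase, the cytochrome b-c1 complex, cytochrome c or its oxidase, or ATP synthase, leaving out ribosomal proteins and the vacuolar ATPase. This rule found 91 of the 36329 genes of the official gene set, of which 80 were annotated as subunits or carriers and 11 as assembly or maturation factors. Expression values played no part in the rule. Both tissues came from mated, host exposed females of the strain Lab II, 1 to 3 days old, with no treatment that set one tissue apart. Each of the 3 VG and 3 ovary libraries was a pool from 40 to 50 individuals, so that no value belongs to a single wasp. The libraries were made from polyadenylated RNA with a stranded protocol.

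The respiratory chain moves electrons from NADH and succinate to oxygen through complexes I to IV, with ubiquinone and the small protein cytochrome c as mobile carriers. Complexes I, III and IV pump protons across the inner mitochondrial membrane, and the ATP synthase, also called complex V, lets them flow back to drive the synthesis of ATP. Each complex is built from core subunits and smaller accessory subunits, with the help of assembly factors that are not part of the finished enzyme. In complexes I to IV, some of the core subunits hold the flavin, iron-sulfur, heme or copper groups. In animals several core subunits of complexes I, III, IV and V are encoded by mitochondrial DNA and all other subunits by nuclear genes.

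The values are normalised counts, which are read counts divided by a size factor of the library, averaged over the 3 libraries of a tissue. They are not divided by gene length, so they compare 1 gene between tissues and not the levels of 2 genes. Where a sentence gives the means of a gene as a pair, the ovary comes first. Reads on genes were estimated per library as the tissue's sum of mean normalised counts times the library's size factor. The estimates ranged from 24519400 to 27549200 for ovary libraries and from 15826300 to 28934200 for VG libraries. They are not counted reads, and they take the normalised sum as equal in all libraries of a tissue. The paper reports a lower mapped share in a VG library, which it ascribes to more rRNA reads. The tissues carried the markers of their labels. Of the 79 venom protein encoding genes named by the study, 77 had at least 10 reads and 72 were at least 2-fold higher in the VG. They took 53.1% of all normalised counts in the VG and 0.195% in the ovary. Of 12 germ line genes, a list that also held the vitellogenin receptor and chorion peroxidase, 11 (91.7%) were at least 2-fold higher in the ovary. Oskar had mean counts of 5422 (ovary) and 8.25 (VG). The remaining gene, bicaudal D-related Nasvi2EG005014, went the other way, with 239 and 3929. Over all genes with at least 10 reads, 34.1% were at least 2-fold higher in the VG and 31.1% in the ovary.

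By the size factors of the deposited values, most respiratory chain genes with reads were higher in the VG than in the ovary. Of the 91 members, 16 had no read, 4 had fewer than 10 reads over the 6 libraries, and 71 passed that minimum, each with reads in both tissues. Among these 71, the VG mean was above the ovary mean for 60 and below it for 11, and 32 (45.1%) were at least 2-fold higher in the VG while 5 (7.04%) were at least 2-fold higher in the ovary. Over all 13623 genes with at least 10 reads, 34.1% were at least 2-fold higher in the VG and 31.1% were at least 2-fold higher in the ovary. The median log2 ratio of VG to ovary was 0.95 for the members and 0.05 for the 12854 tested genes with reads in both tissues. Where a median or a rank among all genes tested is given below, it is over these 12854 genes. In whole tissue RNA, a difference in the number of cells of a type cannot be told apart from a difference in RNA per cell.

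Most members were abundant, and abundant genes as a whole leaned to the other tissue. Of 5724 genes that averaged 300 or more normalised counts over both tissues, 26.3% were at least 2-fold higher in the VG and 33.1% in the ovary, and their median log2 ratio was -0.23. Of the 59 members above that level, 27 were at least 2-fold higher in the VG and 4 in the ovary, and their median was 0.95.

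**Figure D1:**
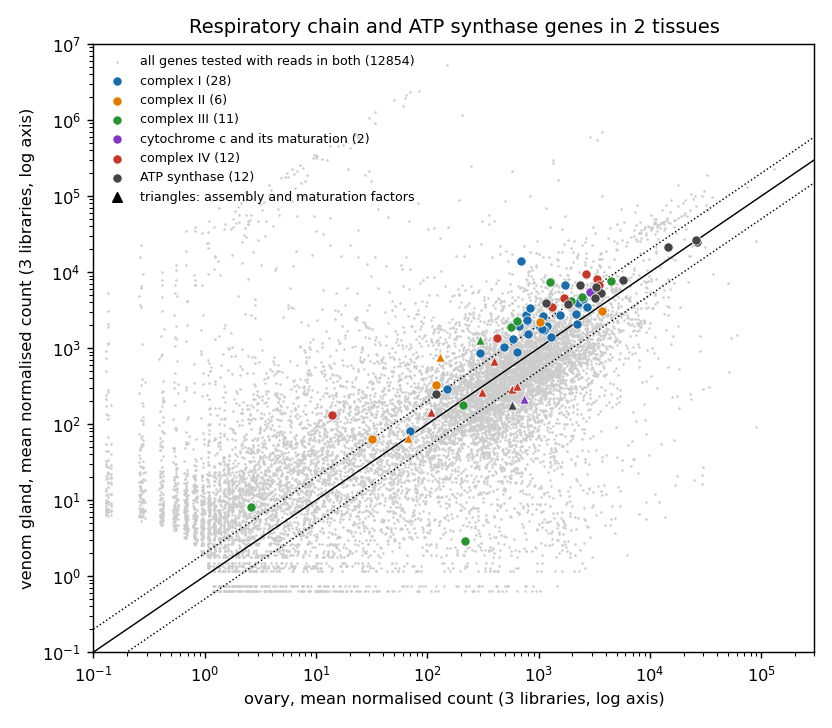
Mean normalised count of each gene in the ovary (horizontal, log axis) and in the VG (vertical, log axis), each point 1 gene and each mean over 3 libraries. Grey points are the 12854 tested genes with reads in both tissues, coloured circles are subunits and triangles assembly or maturation factors, the solid line marks equal means and the dotted lines a 2-fold difference. Of the 71 members plotted, 60 lie above the solid line, whose place depends on the scaling of the libraries.

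The size of these ratios depends on how the libraries are scaled to each other. With totals of all reads in place of the size factors, every log2 ratio moves down by 2.37 and the median of all genes tested becomes -2.32. At least 2-fold higher are then 1 of 71 members in the VG and 49 in the ovary, beside 12.5% and 70.5% of all genes tested. With totals that leave out the venom protein encoding genes, the move is 1.28 and the median of all genes tested -1.23. The counts are then 4 and 14, beside 20.3% and 55.6% of all genes tested. The position of a gene relative to all other genes, and the ratio of 2 genes within a tissue, do not depend on this choice. Relative to the median of all genes tested, 29 members were at least 2-fold higher in the VG, 5 at least 2-fold higher in the ovary, and the median member stood 0.90 log2 units above. The shares of all genes past 2-fold of that median were not counted. A log2 ratio given below is 0.05 more than the same ratio relative to that median. Directions below are those of the size factors, with the share of tested genes that lie below a member where this helps to place it.

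Counts of single libraries could be read from the tissue means only for the less abundant genes, which include 20 of the 71 members in the VG and 8 in both tissues. Libraries read in this way are called a, b and c and are not tied to the replicate numbers. Among 1509 genes with VG means from 300 to 600, the 3 VG libraries had a median SD of 0.28 on the log2 scale, and among 717 genes with ovary means from 50 to 100 the ovary libraries had 0.16. Of 301 genes with means of at least 50 in both tissues, a 2-fold difference and all 6 libraries readable, the libraries of the tissues did not overlap for 287, or 95.3%. These genes were picked by the means of the same libraries, which raises that share. They are less abundant genes, so the share cannot be carried over to the abundant members. For the 51 members without readable VG libraries, the spread between libraries is not known, and a ratio of means carries no test.

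Complex I, the entry point for electrons from NADH, had the most members. Of its 39 genes, 28 were tested, and 27 of these had a higher mean in the VG. At least 2-fold higher in the VG were 12 (42.9%), and none in the ovary. Over all genes tested these shares were 34.1% and 31.1%. The median log2 ratio of complex I was 0.89. Accessory subunits of the beta group, part of the membrane arm, had a median of 1.23 over 8 genes, those of the alpha group 0.78 over 9, and the iron-sulfur and flavoprotein subunits 0.76 over the 8 tested of 12.

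The alpha subcomplex subunit 12 gene, Nasvi2EG001167, which encodes an accessory subunit, stood apart from the rest of the complex. Its mean was 690 in the ovary and 14033 in the VG, 20.3-fold higher (log2 ratio 4.35, counting SE 0.025), above 91.9% of all genes tested. The gene identifier that follows this one belongs to a venom protein encoding gene of the study. Whether reads of that gene were counted for subunit 12 was not tested. The next largest ratio in complex I was 2.02, for the beta subcomplex gene Nasvi2EG011048, with means of 834 and 3377. The alpha subcomplex subunit 4 gene Nasvi2EG009145 followed at 1.94, with means of 1730 and 6660. In mammals this protein has since been assigned to cytochrome c oxidase.

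The 8 tested iron-sulfur and flavoprotein genes of complex I had log2 ratios from -0.10 to 1.602. The highest were an iron-sulfur protein gene (Nasvi2EG033900), with mean counts of 779 (ovary) and 2366 (VG), and iron-sulfur protein 6 (Nasvi2EG007378), with 672 and 1937. The flavoprotein 1 and flavoprotein 2 genes, whose products take the electrons from NADH, had log2 ratios of 0.82 (Nasvi2EG003384) and 1.12 (Nasvi2EG006233). The iron-sulfur protein 7 gene Nasvi2EG035203 had 0.71. Ndufs1, the gene for the 75 kDa iron-sulfur subunit, was the only tested member of complex I with a lower mean in the VG, at 2204 in the ovary and 2049 in the VG (log2 ratio -0.10). Between subunit 12 and Ndufs1 the ratio within a tissue went from 31.3% in the ovary to 685% in the VG.

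Values of every library were available for 2 alpha subcomplex genes. Ndufa7, an accessory subunit, had 133, 157 and 155 normalised counts in the ovary libraries and 202, 324 and 338 in the VG libraries. All 3 VG libraries lay above all 3 ovary libraries. The subunit 5 gene Nasvi2EG025549 had 84.8, 56.7 and 69.6 in the ovary and 68.6, 97.7 and 76.7 in the VG, and its libraries overlapped.

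Complex II, succinate dehydrogenase, links the citric acid cycle to the chain and pumps no protons. Of its 7 genes 6 were tested, and 4 (66.7%) were at least 2-fold higher in the VG and none in the ovary. Over all genes tested these shares were 34.1% and 31.1%. The median log2 ratio of complex II was 1.06. Its catalytic flavoprotein subunit did not follow the smaller subunits. The abundant flavoprotein gene Nasvi2EG005214 had mean counts of 3668 (ovary) and 3036 (VG), a log2 ratio of -0.27, whereas the iron-sulfur subunit gene Nasvi2EG019273 had 119.5 and 323 (1.44) and the small cytochrome b subunit gene Nasvi2EG020274, a membrane anchor, 1029 and 2211 (1.10). The VG libraries of the iron-sulfur gene were close together, at 305, 319.8 and 345, all more than 2-fold above the ovary mean. Relative to the flavoprotein gene of the same tissue, the iron-sulfur gene went from 3.26% in the ovary to 10.6% in the VG and the small cytochrome b gene from 28.0% to 72.8%.

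A second flavoprotein gene, Nasvi2EG005216, was scarce and uneven. It had 43.7, 27.1 and 23.9 normalised counts in the ovary libraries and 78.2, 13.3 and 101 in the VG libraries. VG library b lay below all ovary libraries and the other two above, so its ratio of means of 2.03 rests on VG libraries a and c. Relative to the median of all genes tested its log2 ratio was 0.97, 1.45 without VG library b and 0.48 without VG library c. A second iron-sulfur gene, Nasvi2EG004751, had a mean of 0.405 in the ovary and no VG read. Where copies of a subunit are near-identical, reads could be split between them. The sequences of the copies were not compared.

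The genes annotated as succinate dehydrogenase assembly factor 2-B, whose product helps to attach the flavin to the flavoprotein subunit, came in 2 copies of unlike pattern. Nasvi2EG013992 had 126, 102 and 164 normalised counts in the ovary libraries and 759, 555 and 972 in the VG libraries. The lowest VG library was above the highest ovary library by a wide margin, and the ratio of means was 5.83. Nasvi2EG003347 had 73.5, 63.2 and 63.1 in the ovary and 68.6, 59.96 and 66.2 in the VG, with overlapping libraries. The first copy thus went from 196% of the second in the ovary to 1174% in the VG.

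Complex III, the cytochrome b-c1 complex, passes electrons from ubiquinol to cytochrome c. It had 12 genes, 11 of them tested, with 6 (54.5%) at least 2-fold higher in the VG and 1 (9.09%) in the ovary. Over all genes tested these shares were 34.1% and 31.1%. The median log2 ratio of complex III was 1.09. The small accessory subunits led. Subunit 8 (Nasvi2EG004349) had means of 1267 and 7319, 5.78-fold higher in the VG, and subunits 9 (Nasvi2EG011942) and 10 (Nasvi2EG002129) had log2 ratios of 1.82 and 1.75. The large subunits 1 and 2, which lie on the matrix side of the complex, had -0.24 (Nasvi2EG001117) and 0.63 (Nasvi2EG001172). For subunit 1 the VG libraries held 213.5, 135 and 181 normalised counts around an ovary mean of 209.

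The chaperone gene CBP3 (Nasvi2EG026447), which in yeast is needed to make and assemble cytochrome b, had mean counts of 298 (ovary) and 1281 (VG), 4.30-fold higher. Cytochrome c1, the heme subunit that hands electrons to cytochrome c, had the highest count of the complex over both tissues, with means of 4501 and 7613 (Nasvi2EG006537, log2 ratio 0.76). Its second gene, Nasvi2EG008676, was scarce, with 2.32, 2.02 and 3.48 in the ovary libraries and 1.91, 15.5 and 6.97 in the VG libraries. These libraries overlapped, although the ratio of means of 3.12 put the gene among the members past 2-fold. Relative to the median of all genes tested its log2 ratio was 1.59, 2.06 without VG library a and 0.71 without VG library b.

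The Rieske iron-sulfur subunit, another electron carrier of complex III, also had 2 genes, and the one with the lower count had very few reads in the VG. Nasvi2EG002689 had mean counts of 2439 (ovary) and 4707 (VG). Nasvi2EG016843 had a mean of 217 in the ovary, while the VG libraries a, b and c held 1.91, 6.66 and 0 normalised counts, a mean of 2.86 from at least 4 reads. The ovary mean was 76.0-fold higher (log2 ratio -6.25, counting SE 0.72), the largest difference toward the ovary of any member, below which lay 2.54% of all genes tested. Relative to the median of all genes tested its log2 ratio was -6.30, -7.88 without VG library b and -5.71 without VG library c. Relative to the abundant copy, it went from 8.90% in the ovary to 0.0607% in the VG. VG library b also held more transcript of some germ line genes than the other VG libraries. Vasa had 15.3, 82.2 and 20.9 normalised counts in VG libraries a, b and c against an ovary mean of 9788, and the aubergine gene Nasvi2EG004772 had 51.5, 342 and 94.1 against 18321, whereas oskar had 7.63, 6.66 and 10.5. The part of ovary transcripts in the VG value of the Rieske gene was not tested.

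Cytochrome c itself and the enzyme that matures it differed in direction. The gene annotated cytochrome c-2, Nasvi2EG008223, had mean counts of 2879 (ovary) and 5408 (VG), a log2 ratio of 0.91. The heme lyase gene Nasvi2EG010903, whose product attaches heme to cytochrome c, had an ovary mean of 734 and VG libraries of 150.6, 319.8 and 174. Each VG library lay more than 2-fold below the ovary mean, and the ovary mean was 3.42-fold higher than the VG mean (log2 ratio -1.77).

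Complex IV, cytochrome c oxidase, reduces oxygen to water. All 7 tested nuclear subunits had higher means in the VG and 6 (85.7%) were at least 2-fold higher, with a median log2 ratio of 1.42. The 5 tested assembly factors had a median of -0.22, with none at least 2-fold higher in the VG and 2 (40%) in the ovary. Over all genes tested, 34.1% were at least 2-fold higher in the VG and 31.1% in the ovary. Subunits 5A (Nasvi2EG006041) and VIIc (Cox7c) had log2 ratios of 1.85 and 1.68, with VG means of 9536 and 1336. Subunit 5B (Nasvi2EG012926), which binds zinc, fell just short of 2-fold at 0.97, with means of 3486 and 6828.

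Subunit VIb, which faces the intermembrane space, had 2 genes. The abundant one, Nasvi2EG008364, had means of 1694 and 4535 (log2 ratio 1.42). The scarce one, Nasvi2EG009365, had 11.6, 15.4 and 14.3 normalised counts in the ovary libraries and 129.6, 113 and 153 in the VG libraries, with no overlap and a ratio of means of 9.58. It nevertheless remained a small part of both, at 0.814% of the abundant copy in the ovary and 2.91% in the VG.

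Of the assembly factors of complex IV, 3 had lower means in the VG. COX11 (Nasvi2EG002328), which helps to place copper, had an ovary mean of 581 and VG libraries of 245.9, 399.7 and 219.6. COX19 (Nasvi2EG004059), another factor of the copper route, had 640.0 and VG libraries of 316, 369 and 268. Both lay at a log2 ratio of -1.01, at the edge of the 2-fold rule, with 2 of 3 VG libraries past 2-fold in each. Cox15, needed to make heme A, had an ovary mean of 308 and VG libraries of 286, 202 and 307, all below it. The copper chaperone gene Nasvi2EG001266 had the opposite sign, with an ovary mean of 397 and VG libraries of 499.5, 1046 and 470.5. Without VG library b its log2 ratio relative to the median of all genes tested dropped from 0.71 to 0.24. The remaining factor, Nasvi2EG006458, also had a higher mean in the VG (log2 ratio 0.42). Its ovary mean was 108.3 and its VG libraries held 179.2, 113.25 and 142.9. The lowest VG library lay barely above the highest ovary library, which held 112.96.

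**Figure D2:**
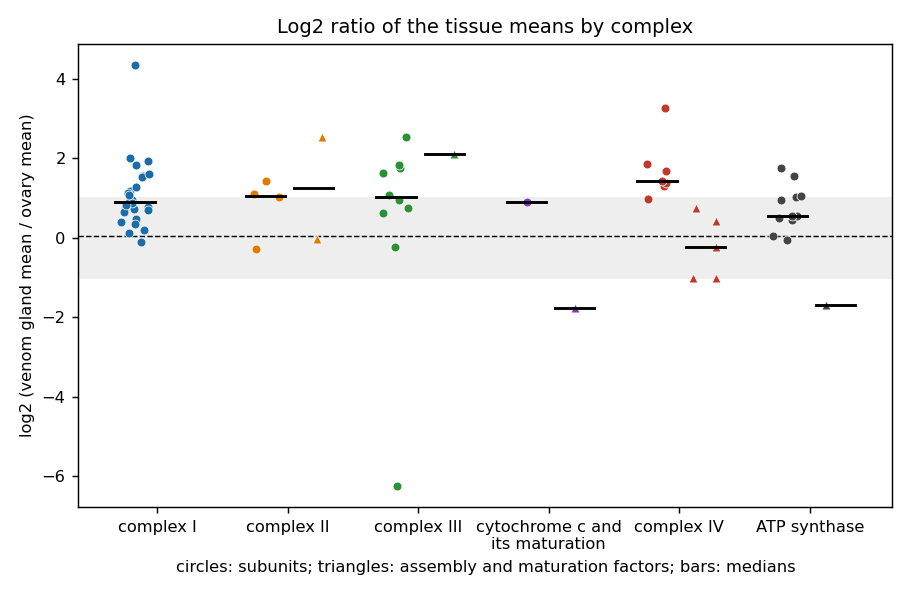
Log2 ratio between the tissue means, VG over ovary (vertical axis), for the 71 tested members, by complex. Circles are subunits, triangles assembly or maturation factors, black bars medians, the dashed line is the median of all genes tested and the grey band spans less than a 2-fold difference. Subunits of complex IV have a median of 1.42 and its assembly factors -0.22, and distances from the dashed line do not depend on the scaling.

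Of the 5 complexes, the ATP synthase had the smallest median, and its catalytic core was nearly equal in the tissues. It had 16 genes, 12 tested, with 4 at least 2-fold higher in the VG, 1 at least 2-fold higher in the ovary and a median log2 ratio of 0.55. These were 33.3% and 8.33% of its tested genes beside 34.1% and 31.1% of all genes tested, so its share higher in the VG was near that of all genes. Subunits alpha (Nasvi2EG009612) and beta (Nasvi2EG004763), which together form the catalytic head, had the highest counts of any member in both tissues. Alpha had mean counts of 25789 (ovary) and 26597 (VG) and beta 26246 and 25175, with log2 ratios of 0.04 and -0.06.

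The central stalk, which turns inside that head, was not at par with it. Gamma (Nasvi2EG013087) had a log2 ratio of 0.44, delta (Nasvi2EG013162) 1.55 and epsilon (Nasvi2EG007055) 1.76. Delta had means of 2333 and 6848, and epsilon 1157 and 3915. Relative to beta of the same tissue, delta went from 8.89% in the ovary to 27.2% in the VG, 3.06-fold, and epsilon from 4.41% to 15.6%, 3.53-fold. Alpha stood at 98.3% and 106% of beta. These ratios are free of the choice of scaling.

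The 6 tested genes of the membrane sector and the outer stalk had log2 ratios from 0.50 to 1.05, above alpha, beta and gamma and below delta and epsilon. The lipid-binding protein, which forms the rotating ring, had means of 14506 and 21330 (Nasvi2EG012157, log2 ratio 0.56). Coupling factor 6 (Nasvi2EG013049) had 1.04 and subunit s (Nasvi2EG019469) 1.05, the latter with VG libraries of 230.7, 199.9 and 314 and an ovary mean of 120.1. The F1 assembly factor 2 gene Nasvi2EG003813, whose product is a chaperone of subunit alpha, had an ovary mean of 575 and VG libraries of 129.6, 262 and 146. All of these lay more than 2-fold below the ovary mean, and the ovary mean was 3.21-fold higher than the VG mean.

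**Figure D3:**
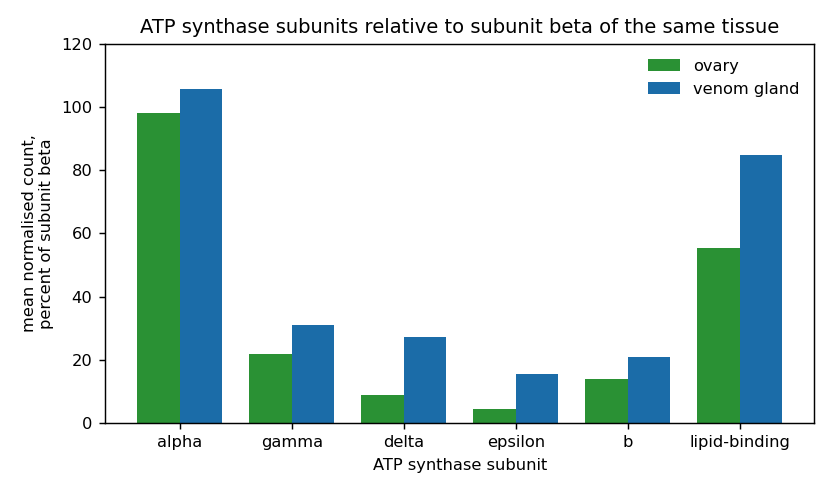
Mean normalised count of 6 ATP synthase subunits as a percentage of subunit beta in the same tissue (vertical axis, from 0), ovary in green and VG in blue, each bar a ratio of means over 3 libraries with no error known. Delta goes from 8.89% to 27.2% and epsilon from 4.41% to 15.6%, while alpha stays near 100% of beta (98.3% and 106%).

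Subunits and assembly factors were also counted as classes across the complexes. Of the 61 tested subunits and carriers, 56 had higher means in the VG, 30 were at least 2-fold higher there and 1, the ovary Rieske gene, was at least 2-fold higher in the ovary, with a median log2 ratio of 0.97. These were 49.2% and 1.64% of the class, beside 34.1% and 31.1% of all genes tested. Of the 10 tested assembly and maturation factors, 4 had higher means in the VG and 6 in the ovary, 2 (20%) were at least 2-fold higher in the VG and 4 (40.0%) in the ovary, and their median was -0.13, or -0.18 relative to all genes tested. With the scale centred on genes whose means reached 10 in each tissue the assembly factors had a median of 0.14. The factors higher in the VG were CBP3 and 1 copy of succinate dehydrogenase assembly factor 2-B, and those higher in the ovary were the heme lyase, F1 assembly factor 2, COX11 and COX19. The class medians are descriptions, since genes of a complex are not replicates, and the difference between the classes was not tested.

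**Figure D4:**
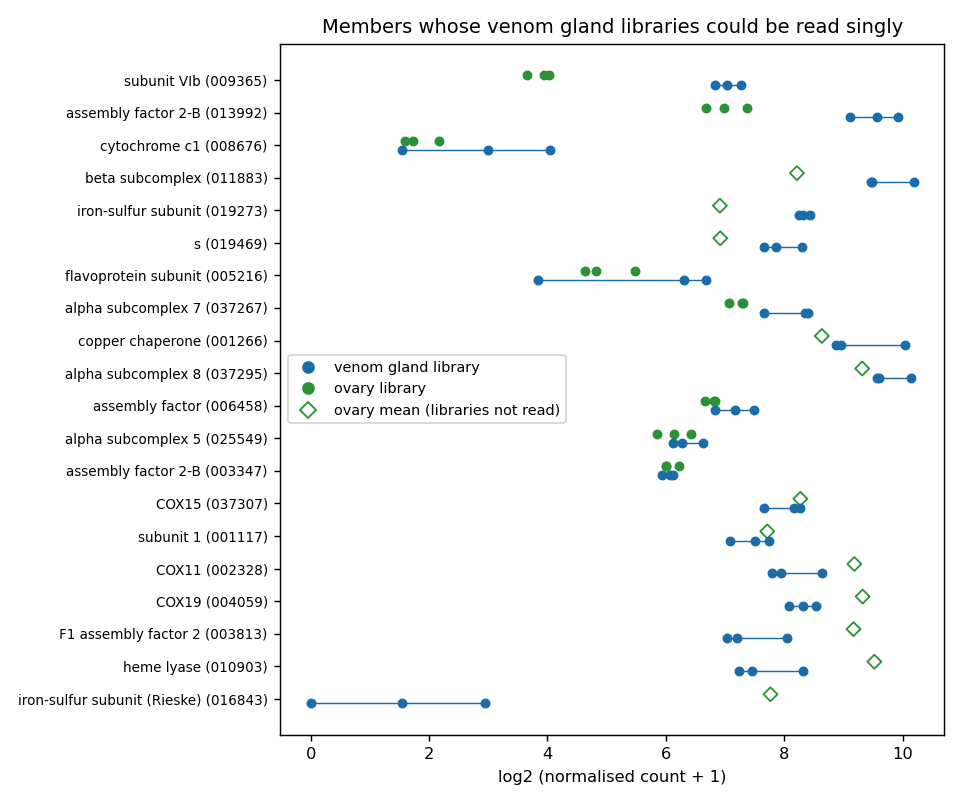
Normalised counts of single libraries, as log2 of the count plus 1 (horizontal axis), for the 20 members whose VG libraries could be read, ordered by the ratio of the tissue means. Blue points are VG libraries joined by a line, green points ovary libraries, and open green diamonds the ovary mean where its libraries could not be read. The heme lyase and F1 assembly factor 2 have all VG libraries below the ovary mean, and subunit VIb Nasvi2EG009365 has all VG libraries above all ovary libraries.

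A test was possible for the 8 members with all libraries read. In limma with an intensity trend over the 6539 genes read in both tissues, on log2 of the normalised count plus 1, 3 of the 8 were higher in the VG at an adjusted p under 0.05 and none in the ovary, against 38.7% and 22.9% of all genes in that fit. The share of members higher in the VG was near that of all genes. None of the 8 was higher in the ovary at an unadjusted p under 0.05 either. These members are the scarce ones and do not stand for the abundant subunits. Subunit VIb Nasvi2EG009365 had a log2 difference of 3.17 ± 0.24 (SE, limma adjusted p = 8.5e-05) and assembly factor 2-B Nasvi2EG013992 had 2.52 ± 0.26 (limma adjusted p = 0.00029). Ndufa7 had 0.92 ± 0.23 (limma adjusted p = 0.012). Without ovary library a the adjusted p of Ndufa7 was 0.060, and without VG library b 5 of the 8 passed. The fit was added after the data had been seen.

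Several members without reads carried the names of subunits that mitochondrial DNA encodes in animals. In complex I these were 4 models named NADH dehydrogenase subunit 5 (Nasvi2EG032809, Nasvi2EG033265, Nasvi2EG034577 and Nasvi2EG035080) and a chain 4 model (Nasvi2EG033266). Complex I also had no read for an unnumbered chain model (Nasvi2EG030249), 2 iron-sulfur protein models (Nasvi2EG007920 and Nasvi2EG017382), a 75 kDa subunit model (Nasvi2EG022406) and the Fe-S protein 5 gene (Nasvi2EG037326). A subunit 5 model, Nasvi2EG034884, had means of 0.409 and 0.740. Not all chain models were silent, since another unnumbered one, Nasvi2EG034578, had means of 1022 and 1872 (log2 ratio 0.87). The others without reads were subunit 6 of complex III (Nasvi2EG012063), subunits 2 and 6C-1 of complex IV (Nasvi2EG036820 and Nasvi2EG012277), a testis-specific cytochrome c (Nasvi2EG013402), and subunit F and F1 assembly factor 1 of the ATP synthase (Nasvi2EG020887 and Nasvi2EG001650). Extra gamma subunit models had a mean of 0.740 in the VG and no ovary read (Nasvi2EG024332) or 0.683 in the ovary and no VG read (Nasvi2EG025150). A tissue without reads allows a mean of up to 0.435 in the ovary or 3.49 in the VG, for counting error only.

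As a whole the members took 1.502% of all normalised counts in the ovary and 0.490% in the VG. Leaving out the venom protein encoding genes, the shares were 1.505% and 1.05%. In normalised counts their sum was 1.69-fold higher in the VG, and 2.02-fold higher without the highest member of each tissue, which were the beta and alpha subunits of the ATP synthase. The share was thus lower in the VG by either total although the sum of normalised counts was higher.

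Other genes of mitochondria and energy metabolism did not all lie on the same side. Enzymes of the citric acid cycle and of pyruvate entry had a median log2 ratio of -0.06, with 6 of 32 (18.8%) at least 2-fold higher in each tissue, both shares under the 34.1% (VG) and 31.1% (ovary) of all genes tested. The highest ratio among those with reads in both tissues was that of a citrate synthase gene Nasvi2EG005484 with means of 10.2 and 913. The more abundant gene, citrate synthase 2 (Nasvi2EG013797), had means of 3011 and 3717 (log2 ratio 0.30). A list of electron transfer flavoprotein and ubiquinone synthesis genes had a median of 0.41 over 10 genes. It also took in dihydroorotate dehydrogenase and mitochondrial glycerol-3-phosphate dehydrogenase, which are not ubiquinone synthesis genes. The ubiquinone biosynthesis gene COQ4 (Nasvi2EG037303) alone was at least 2-fold higher in the VG, with means of 155 and 2226. In the ovary, dihydroorotate dehydrogenase (Nasvi2EG006485) alone was at least 2-fold higher, with 358 and 176 (log2 ratio -1.02). Each made up 10% of that list, under the 34.1% and 31.1% of all genes tested. The V-type proton ATPase, the rotary enzyme most like the ATP synthase, had 0.50 with 7 of 18 (38.9%) at least 2-fold higher in the VG and 2 (11.1%) in the ovary. Glycolysis had -0.44 over 11 genes with reads in both tissues, and the mitochondrial carriers and channels -0.65 over 13.

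The machinery that imports and folds mitochondrial proteins and keeps mitochondrial DNA lay on the ovary side. Of 27 tested import and protease genes, 2 (7.41%) were at least 2-fold higher in the VG and 12 (44.4%) in the ovary, and their median was -0.82. Over all genes tested these shares were 34.1% and 31.1%. The mitochondrial 60 kDa heat shock protein (Nasvi2EG017417), a folding chamber, had means of 13850 and 1708 (log2 ratio -3.02), and the import pore TOM40 (Nasvi2EG002150) had 2765 and 399.6 (-2.79). Of 4 genes of mitochondrial DNA upkeep and transcription, 3 were at least 2-fold higher in the ovary and none in the VG. The helicase Twinkle (Nasvi2EG011881) had 361 and 40.0 (-3.18).

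**Figure D5:**
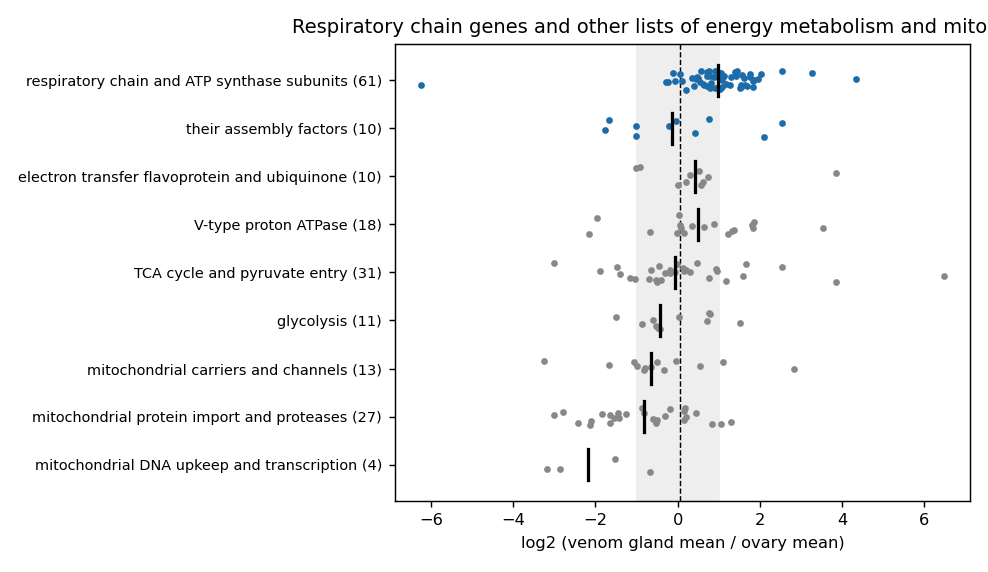
Log2 ratio between the tissue means, VG over ovary (horizontal axis), for each tested gene with reads in both tissues, by list, with the number of genes in brackets. Black bars are medians, the dashed line is the median of all genes tested and the grey band spans less than a 2-fold difference. Respiratory chain and ATP synthase subunits have a median of 0.97, and the lists of protein import and of mitochondrial DNA upkeep -0.82 and -2.19.

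Markers of other cell types differed as well. Of 19 tested muscle genes 4 (21.1%) were at least 2-fold higher in the VG and 1 (5.26%) in the ovary, fewer than the 34.1% and 31.1% of all genes tested, with a median log2 ratio of 0.58 and summed means of 11725 (ovary) and 14733 (VG). Flightin, a protein of flight muscle, had no read in either tissue, and the log2 ratios of the tested genes went from -3.32 for a titin gene (Nasvi2EG013667, means of 268 and 26.9) to 5.64 for troponin C (Nasvi2EG002564, 21.0 and 1047). The muscle genes with the highest counts were nearer to equal, tropomyosin-1 (Nasvi2EG005598) with 3698 and 2860 (log2 ratio -0.37) and muscle myosin heavy chain (Nasvi2EG003943) with 2331 and 2169 (-0.10). Of 4 tested neuron genes none was at least 2-fold higher in the VG and 2 were in the ovary, among them choline acetyltransferase (Nasvi2EG013916), which makes the transmitter acetylcholine, with 852 and 78.6. The median of the neuron genes was -1.14, or -0.12 with 3 further matches to the search words kept in. Of 13 tested fat body genes 8 (61.5%) were at least 2-fold higher in the VG and 4 (30.8%) in the ovary, with sums of 9202 and 116499, most of the VG sum from the vitellogenin gene Nasvi2EG010626 (100996). Their part in the levels of the respiratory chain genes was not tested.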

How the data were processed

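RNA from 3 VG and 3 ovary pools was sequenced. Trimming, mapping with Tophat2, counting on exons with HTSeq-count and normalisation with DESeq were done by the authors. The deposited signal values are the mean normalised counts of each tissue, given to 10 significant digits; which column is which tissue was taken from the headings of a supplementary table. The authors' fold change, log2, p-value and adjusted p-value columns were not used. The design foresaw a test per gene if libraries could be read for most members, and otherwise means, ratios and counts past 2-fold. The second case applied.

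Each low tissue mean is a whole combination of 3 steps, 1 per library (a read divided by its size factor and averaged), within 1.2 times the rounding error. A single combination was found for each of the 11200 ovary means not above 100 and of the 13098 VG means not above 600, for 492 of 926 ovary means from 100 to 200, and for 1051 of 1339 VG means from 600 to 1200. The procedure was tested on simulated data. Size factors from the steps ranged from 2.30 to 2.58 for ovary libraries and from 0.287 to 0.525 for VG libraries. SEs called counting SE and floors (3 reads over a tissue) cover counting error only.

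Genes needed 10 reads over the 6 libraries. limma used a pseudocount of 1 and Benjamini-Hochberg adjustment over all genes fitted. Members and lists were chosen with earlier results of these data known; the venom gene list is the study's, from proteomics. Lists were made from annotation words, and 9 matches naming another protein were removed after their values were seen. Genes named were, per complex, the most abundant member, the members past 2-fold (the 3 largest per direction where there were more than 6), those without reads and all copies of a subunit, and in other lists the 2 largest per direction; the other genes named were chosen after their values were seen, and not all of the rule's genes of the other lists are described. Gene symbols were printed as annotated, and 7 of 7 were found in the RefSeq table. Alternatives were other filters, scalings, pseudocounts, weights and thresholds, leaving out a library, and subunits alone. Software was Python 3.11.15, numpy 2.4.6, pandas, scipy, matplotlib, R 4.3.3 and limma 3.58.1.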

Additional observations from a re-analysis of the deposited data

How the results depend on the processing

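Scaling decided the absolute directions. With totals of all reads, 1 member was at least 2-fold higher in the VG against 49 for the ovary (12.5% and 70.5% of all genes tested), and with totals without venom protein encoding genes 4 and 14 (20.3% and 55.6%). With the former, the medians of complexes I, II, III, IV and the ATP synthase became -1.48, -1.31, -1.28, -1.24 and -1.82, those of all members, subunits and assembly factors -1.42, -1.40 and -2.50, that of cytochrome c and its maturation -2.80, and the ratio of summed members 0.326. With the latter they were -0.39, -0.22, -0.19, -0.15 and -0.73, then -0.33, -0.31 and -1.41, then -1.71, and 0.695. These shifts are the same for every gene. With the log2 scale centred on the median of genes whose means reached 10 in each tissue, 3 members were at least 2-fold higher in the ovary and the median of assembly factors was 0.14. A pseudocount of 5 left 3 members higher in the ovary, and leaving out assembly factors left 1 and turned the median of cytochrome c and its maturation, then 1 gene, to 0.91. The count higher in the VG was 30 to 44 under the filters, pseudocounts, the median scaling and without assembly factors.

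For single members relative to the median of all genes tested, 214 of 226 alternative values moved by less than the spread between libraries (0.32, log2), 12 moved more and none changed sign for a member past 2-fold. For members without readable libraries the only alternatives were pseudocounts of 5 and 0.5. These can hardly move an abundant gene, so most of the 214 values do not show that a ratio is stable. In limma, Ndufa7 turned to -1.45 with totals of all reads and to -0.36 without venom protein encoding genes. Under totals of all reads 1 of the 8 was higher in the VG and 4 were higher in the ovary. The adjusted p ranged over the alternatives from 2.1e-05 to 0.023 for Nasvi2EG009365, from 6.1e-05 to 0.63 for Nasvi2EG013992 and from 0.0015 to 0.22 for Ndufa7. Leaving out a library could be run for 20 members in the VG and 8 in both tissues, and was not run for the others. No paired analysis was possible because the columns carry no replicate numbers. Most members have no known spread between libraries, which limits every ratio of means given here.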
